A study of Mus musculus with 10 samples.

Results

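Txnip and 6 genes of the glucose-sensing ChREBP pathway were followed in fetal mouse liver by polyA RNA-seq. The other genes were Arrdc4, Mlxipl (which encodes ChREBP), Mlx, Pklr, Slc2a2 and Khk. The 7 genes were chosen by name from the 55401 genes of the count table with the difference between genotypes already known, so that difference is given here for them as a description, and where they pass or miss a threshold this is no independent test. All 7 were among the 14098 genes that passed the filter on low counts. Liver of female fetuses was collected at E18.5 (an embryonic day shortly before birth) from 5 Mir483Pat-KO fetuses, which inherited a deleted Mir483 allele from the father, and from 5 wild-type (WT) littermates. Mir483 is a microRNA gene inside Igf2, whose paternal copy is the active one. The deletion was constitutive and was made in JM8.F6 embryonic stem cells of the C57BL/6N strain, and the line was kept on C57BL/6J. The fetuses were therefore without the paternal Mir483 in every tissue, and the libraries hold RNA of whole liver, in which hepatocytes lie among blood-forming cells.

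ChREBP and the related factor MondoA sense glucose through its phosphorylated products, and each binds DNA as a dimer with MLX at a carbohydrate response element made of a pair of E-box sequences. Pklr, Txnip and Arrdc4 are well-known genes with such elements. TXNIP and its paralog ARRDC4 are alpha-arrestins that lower glucose uptake at the cell surface, and TXNIP also binds and inhibits thioredoxin. GLUT2, the product of Slc2a2, carries glucose and fructose across the hepatocyte membrane, and ketohexokinase, the product of Khk, starts fructose breakdown.

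Total counts per library ranged from 10831350 to 14765880. Mir483 itself had 10 to 22 counts in the WT libraries and 0 counts in each of the 5 Mir483Pat-KO libraries, where a count of 0 is read against a floor of 3 counts. These are polyA reads over the Mir483 gene and not the level of the mature microRNAs, which the authors measured separately. All 9 hepatocyte markers examined, among them Alb and Apoa1, were measured, and they summed to between 222666 and 249796 CPM (a gene's counts in proportion to the TMM-scaled library total) among WT and between 200508 and 230324 CPM in Mir483Pat-KO, with 9 of 9 signed lower and 1 past the adjusted p in edgeR. The 10 erythroid markers, among them the globin genes, summed to between 16321 and 21021 CPM in the WT and between 19111 and 26995 CPM in Mir483Pat-KO, with 9 of 10 signed higher and 2 past the adjusted p. Both of these sums overlapped between genotypes, as did the macrophage, neutrophil, endothelial, mesenchymal, cholangiocyte and pancreatic sums. For hepatocyte markers, only Mir483Pat-KO replicate 1 (230324 CPM) overlapped WT. Mir483Pat-KO replicates 2 to 5 lay at 200508 to 220109 CPM, below every WT library. For erythroid markers, Mir483Pat-KO replicates 3 to 5 (25179 to 26995 CPM) lay above every WT library. Of the 8 macrophage markers 2 passed lower and 4 were signed higher. Over all 14098 genes tested, 2.76% passed lower, 2.43% passed higher and 7174 were signed higher. Signed higher were 4 of 7 neutrophil, 1 of 5 endothelial, 0 of 6 mesenchymal, 1 of 4 cholangiocyte and 0 of 2 tested pancreatic markers. The pancreatic hormone gene Gcg had at most 3 counts in every library. The part of these markers in the results was not tested, and in whole-tissue RNA fewer cells of a type and less RNA per cell cannot be told apart. Identification numbers in the labels fell into a lower range (WT replicates 1 to 4 and Mir483Pat-KO replicates 1 and 2) and an upper range (WT replicate 5 and Mir483Pat-KO replicates 3 to 5), and what the ranges stand for is not stated.

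The mature miRNAs of the deleted locus (RefSeq, GRCm38.p6, minus strand) are shown with their seed, bases 2 to 8, in capitals, because they are what the Mir483Pat-KO liver lacks. The 3p arm lies at chr7:142654932-142654952 and the 5p arm at chr7:142654968-142654989.
mmu-miR-483-3p: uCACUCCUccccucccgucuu
mmu-miR-483-5p: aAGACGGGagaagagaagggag
The 7-base complement of the 3p seed, AGGAGTG, was searched on the transcript strand over the longest 3′ UTR that the annotation gives a gene. It occurred at 2 places in the 1354-base 3′ UTR of Txnip, at bases 193 to 199 (chr3:96560722-96560728) and 437 to 443 (chr3:96560966-96560972), both in exon 8 of 8 on the plus strand (GRCm38). Both are shown with the 7 complementary bases in capitals.
Txnip site 1: tgtggcatAGGAGTGtttgctgg
Txnip site 2: tttgtaagAGGAGTGtttttgtg
The other 6 genes had 0 such matches, and the complement of the 5p seed, CCCGTCT, was found in 0 of the 7. Of 21005 genes with an annotated 3′ UTR, 10.7% held AGGAGTG at least once and 1.43% held it at 2 or more places. Among the 1398 genes whose 3′ UTR was 1219 to 1489 bases long, a band around the length of that of Txnip, 142 (10.2%) held it and 9 (0.644%) held it at 2 or more places. A match is a description of the letters and not a site of regulation.

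The promoters were searched for the carbohydrate response element pattern, CACGTG, 5 bases of any kind, CACGTG, which reads the same on both strands, and the match nearest to it was taken. Positions are counted from the annotated start base as 0. A match with 2 of the 12 E-box bases different was found in the promoter of Txnip, at −85 to −69, and at 1 of the annotated starts of Pklr, at −170 to −154. The 250 bases before these starts are shown, from RefSeq (GRCm38.p6, plus strand, chr3:96557707-96557956 for Txnip and chr3:89136373-89136622 for Pklr), with the bases of the match that correspond to the E-boxes in capitals.
Txnip: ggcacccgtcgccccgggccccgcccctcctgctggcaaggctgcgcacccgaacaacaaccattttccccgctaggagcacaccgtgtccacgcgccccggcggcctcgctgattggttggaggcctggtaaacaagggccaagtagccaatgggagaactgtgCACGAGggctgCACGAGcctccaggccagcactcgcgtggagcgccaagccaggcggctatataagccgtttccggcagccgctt
Pklr: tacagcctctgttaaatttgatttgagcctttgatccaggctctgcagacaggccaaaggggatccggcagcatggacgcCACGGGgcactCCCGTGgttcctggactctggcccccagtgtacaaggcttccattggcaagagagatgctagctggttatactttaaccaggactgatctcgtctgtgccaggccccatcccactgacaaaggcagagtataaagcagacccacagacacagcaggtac
The nearest match differed at 3 bases in Arrdc4 and at the better-matching start of Mlxipl, at 4 in Mlx, and at 5 in Slc2a2 and in Khk. These stretches of Arrdc4 (−204 to −188) and Mlxipl (−109 to −93) are given for comparison, and in both the second E-box is complete.
Arrdc4: AAGGTCctgtgCACGTG
Mlxipl: CGGCTGccatcCACGTG
Of the 32851 RefSeq promoters of the same length, 313 (0.953%) had a match with at most 2 different bases, 8.56% with at most 3 and 44.1% with at most 4. A single CACGTG, which is part of the longer pattern, was found in 7.15% of all promoters and in those of Arrdc4, Mlxipl, Mlx and Khk. Thus Txnip and Pklr had the closest matches to the pair of E-boxes, Txnip alone had miR-483-3p seed matches, and the presence of a match says nothing of binding.

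In WT liver the 7 genes covered a wide range of levels per length of exon. Mean level was highest for Pklr, at 83.1 ± 17.2 CPM per kb (SD, n = 5), followed by Txnip at 62.5 ± 15.96 CPM per kb, and the WT ranges of these neighbours overlapped. Slc2a2 (30.5 ± 5.28 CPM per kb) and Khk (19.0 ± 2.05 CPM per kb) came next, each apart from its neighbours. Mlx (11.6 ± 1.14 CPM per kb) and Mlxipl (9.87 ± 0.93 CPM per kb), the factors themselves, overlapped, and Arrdc4 was lowest at 3.11 ± 0.44 CPM per kb. Among 14089 genes with an annotated length, Pklr ranked 360, Txnip 497 and Arrdc4 8044 by this measure. In Mir483Pat-KO, Txnip stood at 152 ± 67.6 CPM per kb and Pklr at 79.0 ± 8.68 CPM per kb, so that the order of the top genes by mean level was the other way round.

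Between genotypes, 2 of the 7 genes passed an adjusted p of 0.05 (edgeR quasi-likelihood test, Benjamini-Hochberg over all genes tested), against 5.19% of all genes. Txnip was the 1 gene higher in Mir483Pat-KO, against 2.43% of all genes, and Mlxipl the 1 gene lower, against 2.76%. Txnip did not pass in the robust fit, Mlxipl did not with offsets for GC content and length, and neither passed with the lower identification number range alone. Txnip was also the 1 gene past a fold change of 1.5, against 1.23%, and the 1 gene whose groups did not overlap, against 6.60% of all genes. These differences were known when the genes were chosen, and nothing is read from these counts.

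**Figure D1:**
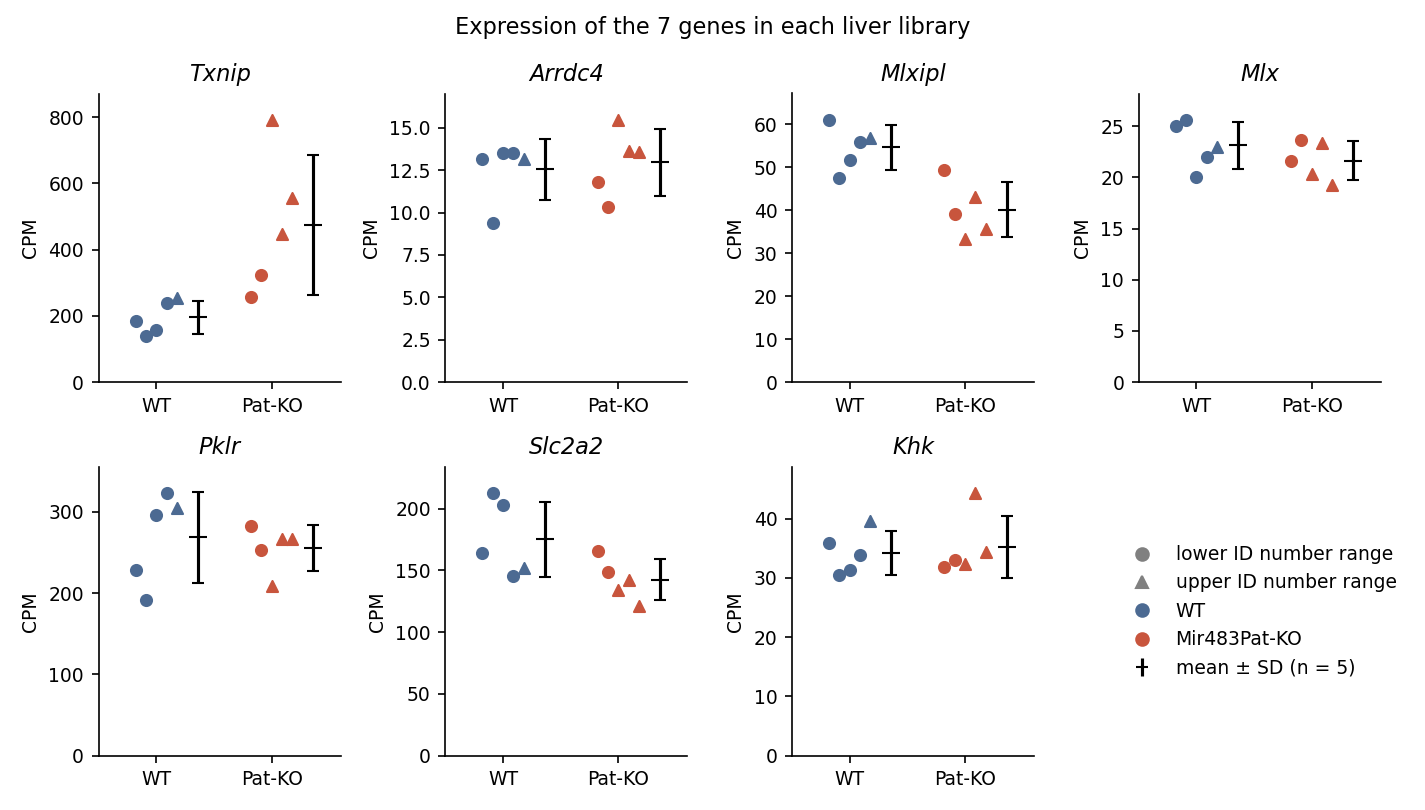
Level of each of the 7 genes in every library (vertical axes, CPM, from 0), for WT and Mir483Pat-KO (Pat-KO). Circles are libraries of the lower and triangles of the upper identification number range, and the black bar is the mean ± SD (n = 5). Txnip reached 448 to 792 CPM in the upper-range Mir483Pat-KO libraries, above all other libraries.

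Mlxipl (ENSMUSG00000005373, chr5:135089890-135138382, GRCm38, plus strand) encodes ChREBP, the main glucose-responsive transcription factor of hepatocytes. It measured 61.1, 47.6, 51.8, 55.8 and 56.9 CPM in WT replicates 1 to 5. In Mir483Pat-KO replicates 1 to 5 it measured 49.4, 39.1, 33.3, 43.1 and 35.6 CPM. All Mir483Pat-KO libraries but replicate 1 lay below every WT library, and replicate 1 lay above the lowest of them, so that the groups overlapped. The means were 54.7 ± 5.15 CPM in the WT and 40.1 ± 6.39 CPM in Mir483Pat-KO, and the fitted log2 fold change was −0.45 (SE 0.10). With each library left out in turn it lay between −0.54 and −0.40, with offsets for GC content and length it was −0.33, and with only the lower identification number range −0.29. Of its exonic bases, 4.2% are shared with Gm43500 on the opposite strand, and the counts do not separate the ChREBP isoforms that start at different promoters.

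Mlx (ENSMUSG00000017801, chr11:101087277-101092207, plus strand) encodes the dimer partner shared by ChREBP and MondoA. It measured 25.04, 25.6, 20.03, 22.02 and 22.97 CPM in the WT and 21.6, 23.6, 20.3, 23.4 and 19.2 CPM in Mir483Pat-KO. The ranges overlapped over most of their extent, and the log2 fold change was −0.10 (SE 0.09). Psmc3ip, on the opposite strand, shares 19.3% of its exonic bases.

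Txnip (ENSMUSG00000038393, chr3:96557957-96561883, plus strand) had the largest difference of the 7 genes. In WT replicates 1 to 5 it measured 186, 139, 159, 238 and 254 CPM. In Mir483Pat-KO replicates 1 to 5 it measured 257, 323, 792, 448 and 556 CPM. The groups did not overlap, but the lowest Mir483Pat-KO library and the highest WT library were almost level. Mean level was 195 ± 49.8 CPM in the WT and 475 ± 211 CPM in Mir483Pat-KO, a fitted log2 fold change of 1.28 (SE 0.24). Replicates within Mir483Pat-KO varied more than within WT, with a coefficient of variation of 44.4% against 25.5%.

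The Txnip level followed the identification number range within Mir483Pat-KO. Its mean was 290 CPM in the 2 libraries of the lower range and 599 CPM in the 3 of the upper range, and in WT the 1 library of the upper range was also the highest. The erythroid marker sum was 19111 and 20750 CPM in the former Mir483Pat-KO libraries and 25179 to 26995 CPM in the latter, whereas the WT library of the upper range had 16686 CPM, near the low end of WT, and its part in the Txnip level was not tested. With the lower range alone (4 WT and 2 Mir483Pat-KO libraries) the log2 fold change was 0.68, and with the range as a covariate it was 0.88. The upper range holds 1 WT library, too few for a value of its own. Without Mir483Pat-KO replicate 3, the library with the highest Txnip, it was 1.01, and over all libraries left out in turn it ran from 1.01 to 1.43.

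Gm15441 (ENSMUSG00000074398, chr3:96555765-96566801, minus strand) is an antisense gene that shares 606 exonic bases with Txnip, which are 19.4% of those of Txnip and 36.2% of its own. Its counts were 6, 25, 15, 7 and 12 in WT and 13, 31, 55, 19 and 24 in Mir483Pat-KO. The groups overlapped, and Mir483Pat-KO replicate 3 was highest, as for Txnip. The log2 fold change was 1.11 (SE 0.40, edgeR adjusted p = 0.119), and it passed without WT replicate 2 (1.52, edgeR adjusted p = 0.0359), with the replicate block (adjusted p = 0.0312) and with no low-count filter (adjusted p = 0.0173). The libraries were made with a stranded kit, but which strand was counted is not given in the sources used here, and without it reads of the antisense partners cannot be told apart.

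Arrdc4 (ENSMUSG00000042659, chr7:68736995-68749241, minus strand) is the closest relative of Txnip. It measured 13.1, 9.38, 13.5, 13.5 and 13.2 CPM in the WT and 11.8, 10.3, 15.5, 13.6 and 13.6 CPM in Mir483Pat-KO. The highest library was again Mir483Pat-KO replicate 3 and the lowest was WT replicate 2, which also had the lowest Txnip, but the ranges of the genotypes overlapped. Its log2 fold change was 0.05 (SE 0.12) beside the 1.28 of Txnip, and it lay between −0.05 and 0.11 with each library left out. It was −0.17 with the lower identification number range alone and −0.06 with the range as a covariate, so that its sign was not settled.

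Pklr (ENSMUSG00000041237, chr3:89136142-89146784, plus strand) encodes liver pyruvate kinase, the last enzyme of glycolysis and a classical ChREBP target. It measured 229, 192, 296, 323 and 305 CPM in the WT and 283, 253, 209, 267 and 266 CPM in Mir483Pat-KO. All Mir483Pat-KO libraries fell inside the WT range. The log2 fold change was −0.07 (SE 0.12), and turned to 0.04 with the lower identification number range alone and to 0.02 with GC content and length offsets. Hcn3, on the opposite strand, shares 22.0% of the exonic bases of Pklr. The counts do not separate its liver and erythrocyte transcripts.

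Slc2a2 (ENSMUSG00000027690, chr3:28697903-28731359, plus strand) encodes GLUT2. It measured 164, 212, 203, 146 and 152 CPM in the WT and 166, 149, 134, 142 and 121 CPM in Mir483Pat-KO. The highest WT libraries, replicates 2 and 3, stood well above every Mir483Pat-KO library, while WT replicates 1, 4 and 5 lay among them. The log2 fold change was −0.30 (SE 0.11) and did not pass the adjusted p, but it passed with no low-count filter (−0.30) and with offsets for GC content and length, which moved it to −0.42.

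Khk (ENSMUSG00000029162, chr5:30921431-30931248, plus strand) measured 35.9, 30.5, 31.3, 33.9 and 39.6 CPM in the WT and 31.9, 33.1, 32.3, 44.3 and 34.4 CPM in Mir483Pat-KO. Apart from Mir483Pat-KO replicate 4, the Mir483Pat-KO libraries lay inside the WT range. The log2 fold change was 0.04 (SE 0.10), and it was −0.05 with the identification number range as a covariate and −0.02 with the lower range alone.

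**Figure D2:**
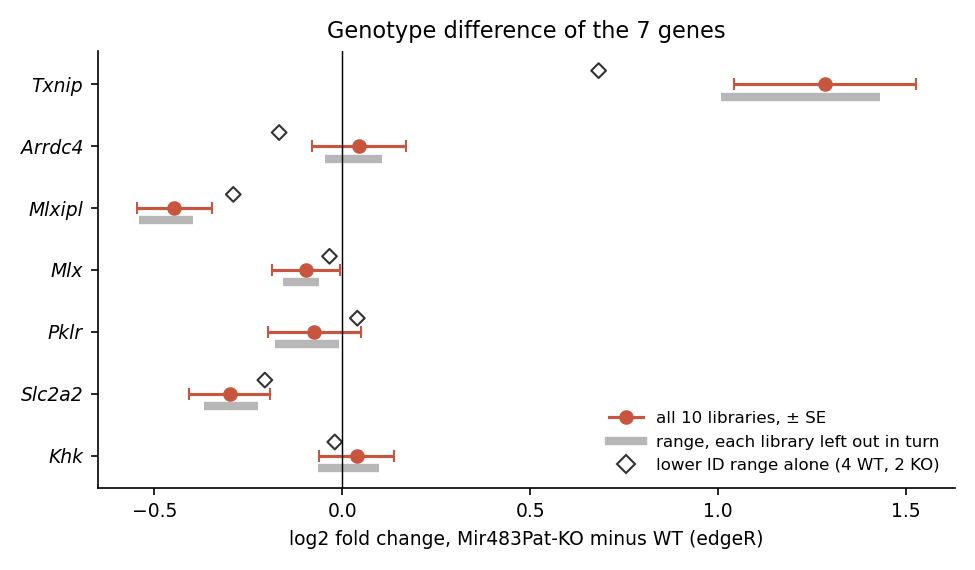
Fitted log2 fold change of each gene, Mir483Pat-KO minus WT (horizontal axis, edgeR). Circles with bars are the fit to all 10 libraries ± SE, grey bars the range with each library left out in turn, and diamonds the lower identification number range alone. Txnip stands at 1.28 and Mlxipl at −0.45, and both diamonds lie nearer to 0, at 0.68 and −0.29.

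Covariation between libraries of the same genotype was not used to choose the genes. The log2 CPM of each gene was taken relative to the mean of its genotype, and Txnip was compared with the other 6 genes over the 10 libraries (two-sided permutation test within genotype, 100000 draws, Benjamini-Hochberg over 6 pairs). Slc2a2 was lower where Txnip was higher, with Pearson r = −0.793 (permutation p = 0.00508, adjusted p = 0.0305) and Spearman rho = −0.782 (permutation p = 0.00965, adjusted p = 0.0579). Arrdc4 was higher where Txnip was higher, with Pearson r = 0.759 (permutation p = 0.0123, adjusted p = 0.0368) and Spearman rho = 0.648 (permutation p = 0.0665, adjusted p = 0.191). The remaining 4 did not pass, with Pearson r of −0.459 for Mlxipl, −0.407 for Mlx, 0.021 for Pklr and 0.321 for Khk. The values of Pklr and Khk were 0.643 and 0.567 without the pair of libraries farthest from the median of Txnip (adjusted permutation p of 0.277 for both) and 0.574 and 0.723 within the lower identification number range (adjusted permutation p of 0.688 and 0.625).

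With the 2 libraries farthest from the median of Txnip left out, Mir483Pat-KO replicates 1 and 3, r was −0.919 for Slc2a2 (exact permutation p = 0.00972, adjusted p = 0.0583) and 0.746 for Arrdc4 (exact permutation p = 0.0542, adjusted p = 0.163). Neither passed the adjusted p with 8 libraries, while r changed little for Arrdc4 and was larger in size for Slc2a2, and no other pair of libraries was left out. Within the lower identification number range (6 libraries), r was −0.968 for Slc2a2, with an exact permutation p of 0.0208 that is the smallest 48 arrangements can give and an adjusted p of 0.125. For Arrdc4 r was 0.505 there (exact permutation p = 0.458, adjusted p = 0.688). The upper range holds 4 libraries, too few for a correlation.

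**Figure D3:**
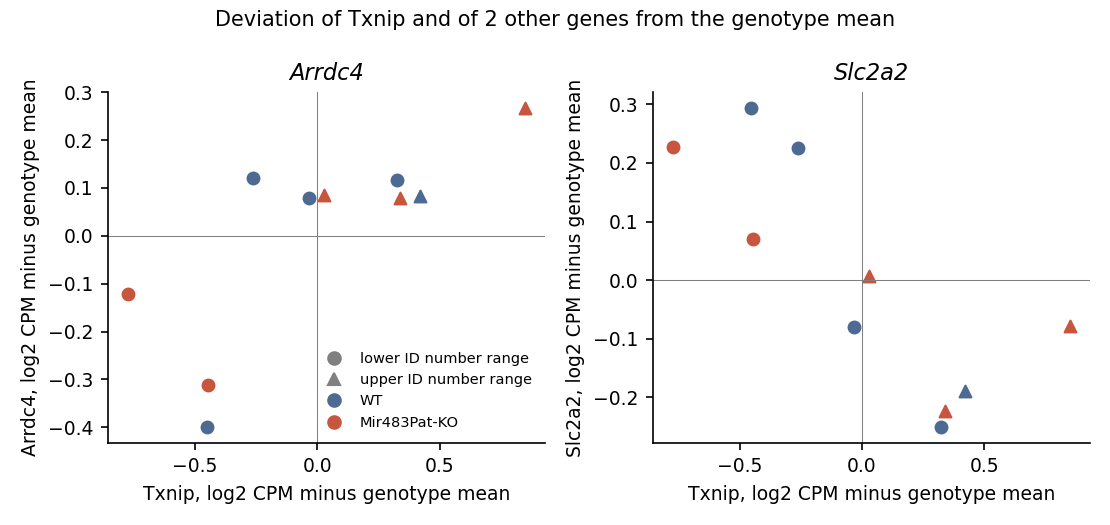
Deviation of Txnip from its genotype mean (horizontal axes, log2 CPM) against that of Arrdc4 and of Slc2a2 (vertical axes, log2 CPM), with 1 point per library, colour for genotype and shape for identification number range. Arrdc4 goes up with Txnip (r = 0.759) and Slc2a2 down (r = −0.793). The lower left of the Arrdc4 panel holds WT replicate 2 and Mir483Pat-KO replicates 1 and 2.

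By the same measure, the genes most like Txnip among 9675 genes with an average log2 CPM of at least 3 were Brap (r = 0.951), Ncapd3 (0.945), Tnfaip2 (0.937), Rgs16 (0.937) and H2-T23 (0.936). Rgs16 is on the list of other ChREBP targets below, and its log2 fold change between genotypes was 0.18 (SE 0.14), whereas Ncapd3, a condensin subunit, differed by 0.27 (SE 0.07, edgeR adjusted p = 0.0299). The genes most like Arrdc4 were Smagp (0.940), Slc25a47 (0.937), Akip1 (0.907), Igfals (0.905) and Osgin1 (0.905). These values describe the same 10 libraries, are the top of a long ranking, and carry no test.

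The rest of the pathway was described with 8 lists of 124 genes, of which 116 were tested. Of these, 10 were lower and 2 were higher in Mir483Pat-KO past the adjusted p, and the median log2 fold change was −0.10, against 0.0042 over all genes tested. Background shares are those given above, 2.76% lower and 2.43% higher. At an unadjusted p under 0.05 in edgeR they were 10.7% of all genes lower and 11.5% higher. At the adjusted p they were 4.78% lower and 4.33% higher in DESeq2, and 2.84% lower and 2.50% higher in limma-voom. The counts of each list by these rules are given below, to be read beside these shares.

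Among the 11 dimer partners and antagonists of the MondoA and MAX network, 0 passed in edgeR, DESeq2 or limma-voom. At an unadjusted p under 0.05, 3 were lower and 1 was higher in edgeR, against 10.7% and 11.5% of all genes (median log2 fold change −0.09). The gene with the highest CPM, Mxd1, a MAX-binding repressor, differed by 0.16 (SE 0.08, edgeR adjusted p = 0.245). Among the 5 tested arrestin genes other than Txnip and Arrdc4, 0 fell and 1, Arrdc3, rose in edgeR, DESeq2 and limma-voom. At an unadjusted p under 0.05 in edgeR, 0 were lower and 1 was higher, against 10.7% and 11.5%. Arrdc3 is an alpha-arrestin of the same family, and it measured 77.3, 43.9, 51.6, 73.2 and 54.3 CPM in the WT and 92.3, 102.8, 97.5, 101.5 and 95.0 CPM in Mir483Pat-KO. The groups were separate, with Mir483Pat-KO libraries close together and above all WT libraries. Its log2 fold change was 0.71 (SE 0.12, edgeR adjusted p = 0.00518). The gene of the list with the highest CPM, Arrb1, a beta-arrestin, differed by 0.10 (SE 0.08, edgeR adjusted p = 0.496).

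Of 23 tested genes described as ChREBP targets in liver, 3 fell and 1 rose in edgeR, against 2.76% and 2.43% of all genes. DESeq2 also gave 3 and 1, against 4.78% and 4.33%, and limma-voom 3 and 0, against 2.84% and 2.50%. At an unadjusted p under 0.05 in edgeR, 9 were lower and 2 higher, against 10.7% and 11.5%. The median log2 fold change was −0.24, and 19 of 23 were signed lower, against 6924 of 14098 over all genes. Gpd1, which makes glycerol 3-phosphate, fell from 175 ± 13.4 to 138 ± 9.43 CPM (SD over 5 libraries each, log2 fold change −0.34, edgeR adjusted p = 0.0143), with separate groups. Mttp, which loads lipid onto lipoproteins, fell by 0.29 on the log2 scale (edgeR adjusted p = 0.0441) and Acaca, which makes malonyl-CoA for fatty acid synthesis, by 0.44 (edgeR adjusted p = 0.0455). Klf10, a transcriptional repressor, rose by 0.46 on the log2 scale (edgeR adjusted p = 0.0408). Hgfac, a protease that activates a hepatocyte growth factor and the gene of the list with the highest CPM, differed by −0.16 (edgeR adjusted p = 0.194). The calls of Klf10, Mttp and Acaca were lost with the identification number range as a covariate (edgeR adjusted p of 0.0732, 0.0691 and 0.0579), that of Klf10 also in limma-voom (adjusted p = 0.0515) and that of Acaca in the robust fit (adjusted p = 0.0595). They were also lost when single libraries were left out. Klf10 lost it without any library but Mir483Pat-KO replicate 1 (adjusted p 0.0547 to 0.103 in edgeR), Mttp without any but WT replicate 2 and Mir483Pat-KO replicate 1 (0.0508 to 0.108), and Acaca without any but WT replicates 1 and 2 and Mir483Pat-KO replicate 1 (0.064 to 0.121).

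Of 29 glycolytic genes, 2 fell and 0 rose in edgeR (median −0.09), where 7 were lower and 0 higher at an unadjusted p under 0.05, against 10.7% and 11.5% of all genes. DESeq2 gave 4 lower and 0 higher at the adjusted p, against 4.78% and 4.33%, and limma-voom 2 and 0, against 2.84% and 2.50%. Ldhb, a lactate dehydrogenase subunit, fell by 0.50 on the log2 scale (edgeR adjusted p = 0.035), and lost the call without any library but WT replicate 1 and Mir483Pat-KO replicate 1 (adjusted p 0.0507 to 0.0936). Ldha, which encodes the other subunit and had the highest CPM of the list, differed by 0.05 (edgeR adjusted p = 0.748).

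Of the 7 tested carriers of glucose, fructose and glucose 6-phosphate other than Slc2a2, 1 fell and 0 rose in edgeR and in limma-voom, and 2 fell and 1 rose in DESeq2, against 4.78% and 4.33% of all genes. At an unadjusted p under 0.05 in edgeR, 2 were lower and 1 was higher, against 10.7% and 11.5%. Slc37a4, which carries glucose 6-phosphate into the endoplasmic reticulum for glucose release, fell from 157 ± 9.99 to 128 ± 6.08 CPM (log2 fold change −0.29, edgeR adjusted p = 0.0194), with separate groups. Slc2a1, which encodes GLUT1 and had the highest CPM of the list, measured 145 to 203 CPM in the WT and 194 to 277 CPM in Mir483Pat-KO (log2 fold change 0.37, edgeR adjusted p = 0.0523). It passed with DESeq2 (adjusted p = 0.0182), and in edgeR with the replicate block (adjusted p = 0.0151), with GC content and length offsets (adjusted p = 0.0139), with no low-count filter (adjusted p = 0.00195), and without WT replicate 2 (adjusted p = 0.0454) or Mir483Pat-KO replicate 1 (adjusted p = 0.027). GLUT1 is also the glucose carrier of fetal erythroid cells, whose marker sum is given above, and its part in this difference was not tested.

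Fructose and polyol metabolism was the list with the lowest median, −0.26. Of its 8 enzymes, 3 fell and 0 rose in edgeR, DESeq2 and limma-voom. All genes gave 2.76% and 2.43% in edgeR, 4.78% and 4.33% in DESeq2, and 2.84% and 2.50% in limma-voom. At an unadjusted p under 0.05 in edgeR, 5 were lower and 0 higher, against 10.7% and 11.5%. The 3 that fell had separate groups, as did 460 of the 14098 genes tested in the lower direction. Glyctk, glycerate kinase, fell from 151 ± 6.35 to 107 ± 13.9 CPM (log2 fold change −0.50, edgeR adjusted p = 0.00432). Aldh2, an aldehyde dehydrogenase, fell by 0.32 on the log2 scale (edgeR adjusted p = 0.0227) and lost the call without WT replicate 5 or Mir483Pat-KO replicate 2, 3 or 4 (adjusted p 0.0504 to 0.0627). Khk, the first enzyme of the same route, had a log2 fold change of 0.04.

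Of 18 thioredoxin system genes, whose namesake proteins TXNIP binds, 0 passed in edgeR (median 0.08), with 1 lower and 2 higher at an unadjusted p under 0.05, against 10.7% and 11.5% of all genes. DESeq2 called 1 lower and 1 higher, against 4.78% and 4.33%, and limma-voom called 0. The gene with the highest CPM, Prdx2, a peroxiredoxin rich in red cells, differed by 0.16 (edgeR adjusted p = 0.353). Of 15 genes that rise in liver on fasting or low insulin, 1 fell and 0 rose in edgeR, DESeq2 and limma-voom (median −0.06), with 3 lower and 2 higher at an unadjusted p under 0.05 in edgeR, against 10.7% and 11.5%. Cpt1a, the entry enzyme of mitochondrial fatty acid oxidation, fell from 130 ± 15.2 to 94.5 ± 9.55 CPM (log2 fold change −0.46, edgeR adjusted p = 0.0102). Arrdc3, Glyctk and Cpt1a passed under each alternative tried except the lower identification number range alone, where none of the 12 genes passed and all 12 kept their sign. Gpd1 and Slc37a4 also lost the call under GC content and length offsets (edgeR adjusted p of 0.0873 and 0.102).

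**Figure D4:**
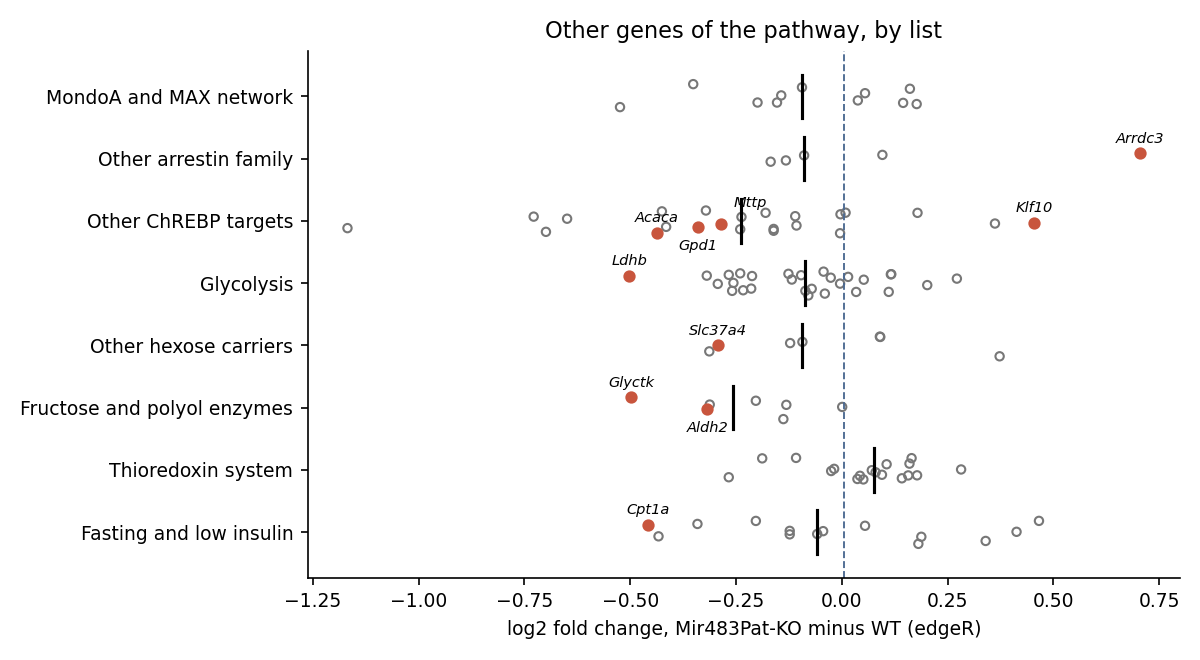
Log2 fold change of the tested genes of the 8 lists (3 are not drawn), Mir483Pat-KO minus WT (horizontal axis, edgeR), with 1 point per gene. Filled points passed the adjusted p, black bars are medians of whole lists and the dashed line is the median of all genes tested, 0.0042. Arrdc3 (0.71) is the highest of the points, and Ldhb and Glyctk stand at −0.50.

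Seen library by library, the differences were not uniform. Mir483Pat-KO replicate 3 held the highest Txnip, Arrdc4 and Gm15441 and the lowest Mlxipl, Acaca and Glyctk of all libraries. Mir483Pat-KO replicate 1 was the nearest to WT for Txnip, Mlxipl, Acaca and Klf10. WT replicate 2 had the lowest Txnip and Arrdc4 of all libraries together with the lowest Pklr of the WT libraries.

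**Figure D5:**
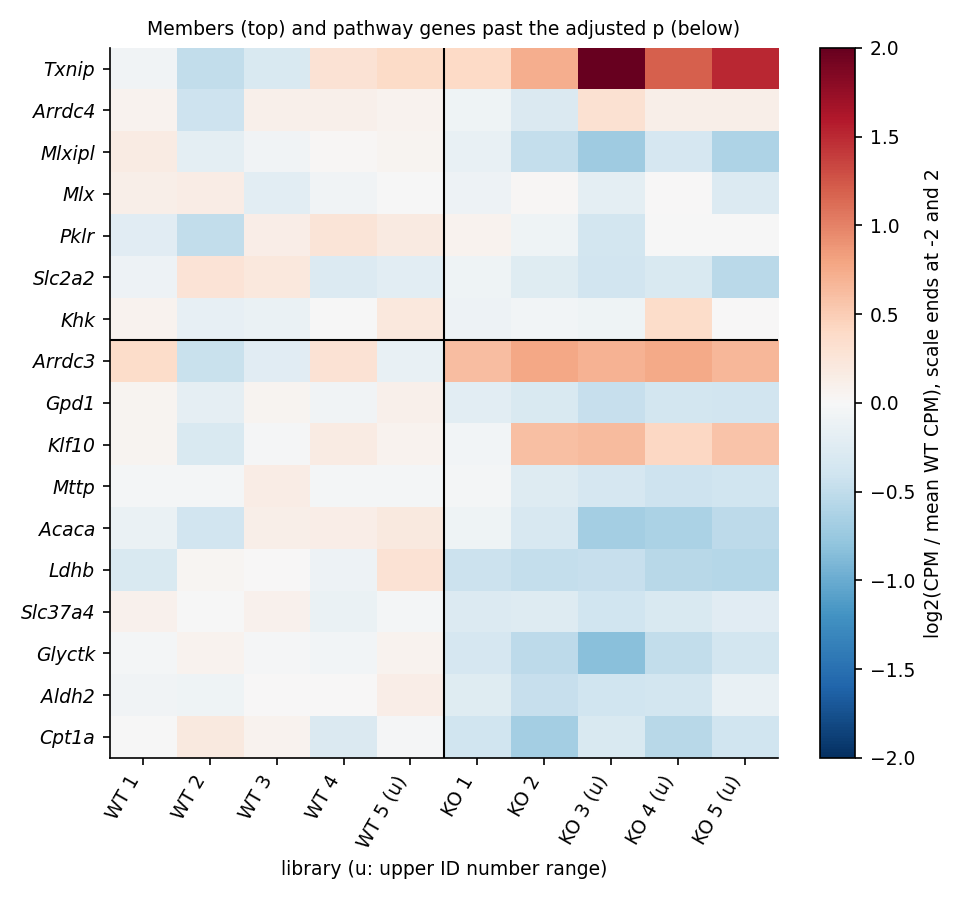
Level of the 7 genes (above the line) and 10 pathway genes past the adjusted p (below) in each library, as log2 of CPM over the mean WT CPM (colour, scale ends at −2 and 2), for WT and Mir483Pat-KO (KO) replicates, with (u) marking the upper identification number range. Txnip is reddest in Mir483Pat-KO replicates 3 to 5 and Acaca bluest in the same libraries, and Mir483Pat-KO replicate 1 is nearest to WT for both.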

How the data were processed

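The authors extracted total RNA with a miRNeasy kit, made polyA libraries with a stranded TruSeq kit, aligned reads to GRCm38 with STAR and deposited the counts of each Ensembl gene as they were, not normalized. How strand was treated in counting is not given in the sources used here. Of 55401 genes, 55141 matched a symbol in GENCODE mouse release M21, which also gave positions, exons and 3′ UTRs. Sequences are from RefSeq.

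Labels gave the groups. The count model was edgeR 4.0.16 under R 4.3.3 (filterByExpr, TMM scaling, quasi-likelihood F-test, no covariates, Benjamini-Hochberg over 14098 genes), a procedure tested on simulated data. CPM use TMM-scaled totals, and log2 CPM for correlations a prior count of 2. The lowest chi-square per degree of freedom between libraries of a group was 4.85 over 20 pairs, so no library was a copy of another within sampling noise. The floor of 3 counts covers counting error only, while SD and SE include the spread between fetuses. Litters are not named in the labels, so p-values measure the spread between these fetuses.

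The 7 genes, the lists and the tests were chosen with earlier results of these data known. Named were the 7 genes, Gm15441 and Mir483, the pathway genes past the adjusted p (at most 6 a list), the gene of highest CPM in each list, and the 5 genes most like Txnip and Arrdc4. Fasn, Thrsp, Pnpla3, Igfbp1 and Pck1 were named after their values were seen. Items withheld for evaluation are counted in the lists but not reported here. Alternatives were RLE scaling, DESeq2 1.42.0, limma-voom (limma 3.58.1), the robust fit, no filter on low counts, a minimum of 10 counts in each library, a replicate block, the identification number range as covariate or its lower part alone, GC content and length offsets, and each library left out. Figures were drawn with matplotlib 3.10.9 in Python 3.11.15.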

Additional observations from a re-analysis of the deposited data

Results flagged for a closer look

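In 6 of the 58 groups of 5 libraries examined, 1 library stood far from the other 4 (gap to its neighbour over the whole range above 0.71). Chance alone gives this in about 1 of 20 groups. Igfbp1 and Pck1 were added to the groups after their values were seen, so their 2 libraries cannot be set against that share. Arrdc4 was 9.38 CPM in WT replicate 2, against 13.1 to 13.5 CPM in the other WT libraries. Khk was 44.3 CPM in Mir483Pat-KO replicate 4, against 31.9 to 34.4 CPM. Igfbp1 was 2106 CPM and Pck1 51.5 CPM in Mir483Pat-KO replicate 3, the library with the highest Txnip, against 801 to 996 CPM and 6.19 to 14.5 CPM in the other Mir483Pat-KO libraries. Mxd1 was 93.8 CPM in WT replicate 5, against 106 to 109 CPM, and Mttp was 240.0 CPM in WT replicate 3, against 209 to 211 CPM.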

How the results depend on the processing

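With the lower identification number range alone (4 WT, 2 Mir483Pat-KO libraries) the log2 fold change of Txnip was 0.682, none of the 7 genes and of the pathway genes passed (0 lower, 0 higher), and over all genes 20 were lower, 3 higher and 21 past both thresholds. The robust fit left 1 of the 7, Mlxipl. With no low-count filter 3 of the 7 passed, Slc2a2 among them, and with GC content and length offsets Txnip and Slc2a2 passed and Mlxipl did not. Over all genes, 389 lower and 342 higher genes became 609 and 551 with DESeq2, 625 and 633 with no low-count filter (321 in place of 173 with the fold change) and 192 to 475 and 87 to 389 with each library left out (97 to 233 with the fold change), and 646 were higher with the range as a covariate. Pathway genes, 10 lower and 2 higher, became 22 and 7 with no filter, 16 lower with the covariate, 4 higher with DESeq2, 1 with voom and 5 with GC content and length offsets, and 5 to 16 and 1 to 4 with libraries left out. Leaving out Mir483Pat-KO replicate 4 gave the fewest lower pathway genes and the fewest genes in all, and counts also moved by over 1.5 times without WT replicate 5 or Mir483Pat-KO replicate 2, for higher genes also without WT replicate 3 or 4 or Mir483Pat-KO replicate 3 or 5, and for pathway genes also without WT replicate 1 or 2 or Mir483Pat-KO replicate 1. Libraries were treated as unpaired, since the labels give no shared litter or day and the deviations of same-numbered libraries, which correlated at −0.050 to 0.261 across genes (mean 0.087, against −0.022 for other numbers), were not all above 0.1. Of the 10 libraries, 5 correlated best with their own number, which is a hint of pairing from the data. With the replicate block 596 genes were lower and 742 higher, 6 pathway genes were higher, and Gm15441 passed (1.114, edgeR adjusted p = 0.0312), as it did with no filter (1.110, adjusted p = 0.0173) and without WT replicate 2. Gm15441 ranged from 0.721 to 1.517 with libraries left out. Signs of differences near 0 turned for Arrdc4 (−0.168 in the lower range, −0.062 with the covariate), Pklr (0.040 in the lower range, 0.017 with GC content and length offsets) and Khk (−0.020 in the lower range, −0.049 with the covariate), for Arrdc4 and Khk also with single libraries left out (down to −0.046 and −0.065), and signs also turned for Mxd1 (−0.056) and Prdx2 (−0.068) in the lower range, for Ldha with the covariate (−0.004) and without WT replicate 1 (−0.006, up to 0.110 with other libraries left out), and for the correlation of Txnip with Mlxipl in the lower range (0.230) and without the 2 farthest libraries (0.313). The correlations with Slc2a2 (−0.968 and −0.919) and Arrdc4 (0.505 and 0.746) no longer passed in the same settings. A single CACGTG was in promoters of 4 of the 7 genes, and a match to the pair of E-boxes with 2 bases different in those of 2, with the exact pair in none. The cause was not tested. No scaling moved the median of all genes by over 0.1.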

Other observations

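Some pathway genes that did not pass, named after their values were seen, had their lowest value in the library with the highest Txnip. Fasn, fatty acid synthase, was 131 CPM in Mir483Pat-KO replicate 3, against 221.5 to 412.1 CPM in the other Mir483Pat-KO libraries and 248 to 532 CPM in WT (log2 fold change −0.65, edgeR adjusted p = 0.123). Thrsp, a lipogenic gene, was 0.38 CPM there, and 0.50 CPM in WT replicate 2 against 4.65 to 5.31 CPM in the other WT libraries (log2 fold change −1.17, edgeR adjusted p = 0.157). Pnpla3, a lipid droplet lipase, was 4.29 CPM there and 16.96 CPM in WT replicate 1 (log2 fold change −0.70, edgeR adjusted p = 0.101). WT replicate 2, with the lowest Txnip, had the lowest WT value of all 3 genes as well, so that low values of these genes stood at both ends of the Txnip range.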
